A study of Mus musculus with 6 samples.

Results

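Il1rl1, Klrg1, Tff1, Penk and Fgl2 are 5 of the 27998 genes listed in the deposited count matrices. They were chosen by symbol, with their levels in these libraries already known, as genes of regulatory T cells (Tregs) that live in tissues, so every value of theirs below is a description without a test. Treg-containing cells were taken as cells with at least 1 unique molecular identifier (UMI, one captured transcript) of Foxp3, the transcription factor that defines Tregs, and at least 1 of the T cell receptor subunit gene Cd3e. They are called Foxp3+ cells, and cells with Cd3e and no Foxp3 UMI are called Foxp3- cells.

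The study profiled single CD4+ T cells of C57/B6 mice by droplet sequencing of transcript 5' ends, after elastase (PPE in the labels) had been used to induce an aneurysm of the abdominal aorta. It holds 3 vascular libraries and 3 spleen libraries. Mice were 8 to 12 weeks old at induction and tissue was taken 14 days after surgery. Vascular cells came from whole aortas minced and digested with enzymes, and spleen cells from ground spleen, so tissue and preparation cannot be told apart. Every library came from elastase-treated mice and no untreated aorta was analysed here. The labels do not say whether libraries of one tissue came from separate animals, so p-values here reflect only how far these libraries scatter, and that scatter may be technical.

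Tregs restrain other immune cells, and those that settle in non-lymphoid tissue are known for receptors of tissue alarm signals and for secreted products that most lymphoid Tregs lack. Il1rl1 encodes ST2, the receptor of the alarm cytokine IL-33, which signals through Il1rap, Myd88 and the Irak kinases. Klrg1 encodes an inhibitory lectin-like receptor that binds cadherins and marks terminally differentiated lymphocytes and tissue Tregs. The other members encode secreted proteins: Tff1 a trefoil peptide best known from gastric mucus, Penk proenkephalin, which convertases cut into the opioid enkephalins, and Fgl2 a fibrinogen-like protein that acts as a suppressive Treg effector through Fc receptors.

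All members are protein-coding genes on GRCm38, the assembly that mm10 names. Il1rl1 spans chr1:40429570-40465415 on the plus strand and Klrg1 chr6:122270596-122282882 on the minus strand. Tff1 lies at chr17:31161395-31165277 on the minus strand, Penk at chr4:4133531-4138819 on the minus strand and Fgl2 at chr5:21372642-21378374 on the plus strand. Tff1, Penk and Fgl2 each overlap a gene on the other strand, and no source used here gives the strand setting of the counting. Gm15318, opposite Tff1, had 0 to 6 UMIs per library, Ccdc146, opposite Fgl2, had 1 to 5, and A830012C17Rik, opposite Penk, was not analysed here.

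As the 5 genes were all high in vascular Foxp3+ cells, the bases before their start sites are shown where a sequence was at hand, which was so for 2 of the 5 genes. The sequences are from RefSeq on GRCm38.p6, plus strand, 5' to 3', ending before annotated exon bases except in Fgl2, where the last bases, up to the end of its motif, lie in an annotated exon. Capitals mark 3 motifs searched on both strands. TGANTCA is the element bound by AP-1 factors such as BATF with JUN, GATAAG is bound by the factor family of GATA3, and TGACG is the core of the element bound by CREB and ATF factors.
Il1rl1, first start site, chr1:40429320-40429569: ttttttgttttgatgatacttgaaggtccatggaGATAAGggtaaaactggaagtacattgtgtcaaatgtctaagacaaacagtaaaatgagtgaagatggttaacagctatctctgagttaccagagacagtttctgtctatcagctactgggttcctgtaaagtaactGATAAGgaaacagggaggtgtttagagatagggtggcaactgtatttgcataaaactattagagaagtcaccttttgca
Il1rl1, second start site, chr1:40439379-40439626: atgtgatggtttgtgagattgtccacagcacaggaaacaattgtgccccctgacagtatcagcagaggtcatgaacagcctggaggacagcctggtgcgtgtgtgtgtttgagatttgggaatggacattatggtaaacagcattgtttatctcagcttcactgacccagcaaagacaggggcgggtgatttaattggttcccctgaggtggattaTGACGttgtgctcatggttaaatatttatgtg
Fgl2, chr5:21372423-21372663: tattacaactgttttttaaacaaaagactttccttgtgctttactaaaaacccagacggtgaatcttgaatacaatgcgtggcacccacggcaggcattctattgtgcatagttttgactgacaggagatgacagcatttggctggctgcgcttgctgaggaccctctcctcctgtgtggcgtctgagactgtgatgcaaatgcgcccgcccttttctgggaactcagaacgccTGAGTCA
The first Il1rl1 window held 2 GATAAG matches, the second held 1 TGACG match and the Fgl2 window held 1 TGANTCA match. Among 32851 mouse promoter windows of 250 bases, 6.55% held GATAAG, 17.8% held TGACG and 6.75% held TGANTCA. A match describes letters and is not evidence of binding.

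Foxp3+ cells numbered 573, 437 and 574 in vascular libraries 1 to 3 and 207, 808 and 781 in spleen libraries 1 to 3. They made up 7.9 to 10.3% of Cd3e+ cells in vascular and 9.22 to 9.9% in spleen libraries. Their median depth was 5483, 5961 and 6015 UMIs in vascular libraries and 6083, 4714 and 4775 UMIs in spleen libraries. Foxp3- cells numbered 6684, 3948 and 5001 in vascular and 1923, 7352 and 7691 in spleen libraries. Vascular Foxp3+ cells carried the Treg genes Ctla4 in 93.1% and Ikzf2 in 78% of cells, against 42.8% and 9.19% of vascular Foxp3- cells with none of the 5 genes. They carried Il2ra, the IL-2 receptor gene, in 66.2%, against 7.08%. Whole libraries held 14836442 to 55483411 UMIs, and any pair shared 0.766 to 1.69% of the smaller one's barcodes. No pair of replicate Foxp3+ sums was a repeat of one library, since chi-square per degree of freedom was 2.79 to 9.02.

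In Foxp3+ cells each of the 5 genes was higher in every vascular than in every spleen library, with the smallest ratio of means for Penk and by far the largest for Tff1. Levels are given as CPM, the UMI count scaled by the total of the summed cells of a library. The libraries of 22.3% of the 10118 genes tested lay apart in this direction, and since the genes were chosen on this contrast, nothing is read from their count.

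Il1rl1, the IL-33 receptor, stood at 91.8, 69 and 51.5 CPM in vascular Foxp3+ cells, against 1.78, 5.6 and 4.77 CPM in spleen Foxp3+ cells. The tissues did not overlap, and vascular library 1 was the highest. The means were 70.8 ± 20.2 and 4.05 ± 2.01 CPM (SD, n = 3 each), a log2 difference of 3.93 (SE 0.29). An Il1rl1 UMI was seen in 27.9, 24.3 and 19.7% of vascular Foxp3+ cells, against 1.45, 2.85 and 2.43% of spleen Foxp3+ cells. The spleen shares rest on 3, 23 and 19 cells.

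Klrg1, the cadherin-binding receptor, stood at 443, 340 and 274 CPM in vascular Foxp3+ cells, against 101, 81.5 and 96.2 CPM in spleen Foxp3+ cells. The vascular libraries fell in the same order as for Il1rl1, and none reached down to a spleen library. The means were 352 ± 85.2 and 92.9 ± 10.2 CPM (SD, n = 3 each), a log2 difference of 1.93 (SE 0.17). It was detected in 55.8, 46.2 and 40.9% of vascular Foxp3+ cells, against 14, 9.53 and 10.4% of spleen Foxp3+ cells.

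Tff1, the trefoil peptide, stood at 95.1, 209 and 113 CPM in vascular Foxp3+ cells, against 0.594, 0.207 and 0 CPM in spleen Foxp3+ cells. Here vascular library 2 was the highest, unlike the order seen for both receptors. The 3 vascular libraries held 1642 Tff1 UMIs in Foxp3+ cells and the 3 spleen libraries held 2, a ratio of summed levels of 745 with a 95% counting interval of 206 to 6154. That interval covers counting error alone. It was detected in 18.3, 23.3 and 16.6% of vascular Foxp3+ cells, against 1 of 207, 1 of 808 and 0 of 781 spleen Foxp3+ cells, where 0 allows a share of up to 0.384%.

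Penk, the enkephalin precursor, stood at 374, 377 and 304 CPM in vascular Foxp3+ cells, against 120, 91.5 and 131 CPM in spleen Foxp3+ cells. Both tissues were tightly grouped and did not overlap, with means of 352 ± 41.3 and 114 ± 20.4 CPM (SD, n = 3 each) and a log2 difference of 1.63 (SE 0.14). It was detected in 18.5, 20.8 and 18.1% of vascular Foxp3+ cells, against 5.31, 5.94 and 5.51% of spleen Foxp3+ cells.

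Fgl2, the fibrinogen-like effector, stood at 169, 144 and 132 CPM in vascular Foxp3+ cells, against 17.8, 22 and 17.7 CPM in spleen Foxp3+ cells. The tissues lay far apart, with means of 148 ± 18.9 and 19.2 ± 2.45 CPM (SD, n = 3 each) and a log2 difference of 2.93 (SE 0.14). It was detected in 46.6, 47.4 and 42.7% of vascular Foxp3+ cells, against 9.18, 8.29 and 6.4% of spleen Foxp3+ cells.

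Depth differs between cells, so the share of cells expected to show a UMI was also computed at 2000 UMIs per cell, which left out 1 vascular and 6 spleen Foxp3+ cells. At that depth Il1rl1 was seen in 12.7 ± 2.79% of vascular and 0.887 ± 0.377% of spleen Foxp3+ cells. Klrg1 was seen in 34.6 ± 6.42% and 8.13 ± 1.66%, and Tff1 in 12.5 ± 3.07% and 0.0314 ± 0.0409%, of vascular and spleen Foxp3+ cells. Penk was seen in 14.5 ± 0.854% and 4.18 ± 0.442%, and Fgl2 in 23.6 ± 1.41% and 3.64 ± 0.634%, of the same cells (SD, n = 3 each). No vascular library overlapped a spleen library for any of the 5 genes at this depth.

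**Figure D1:**
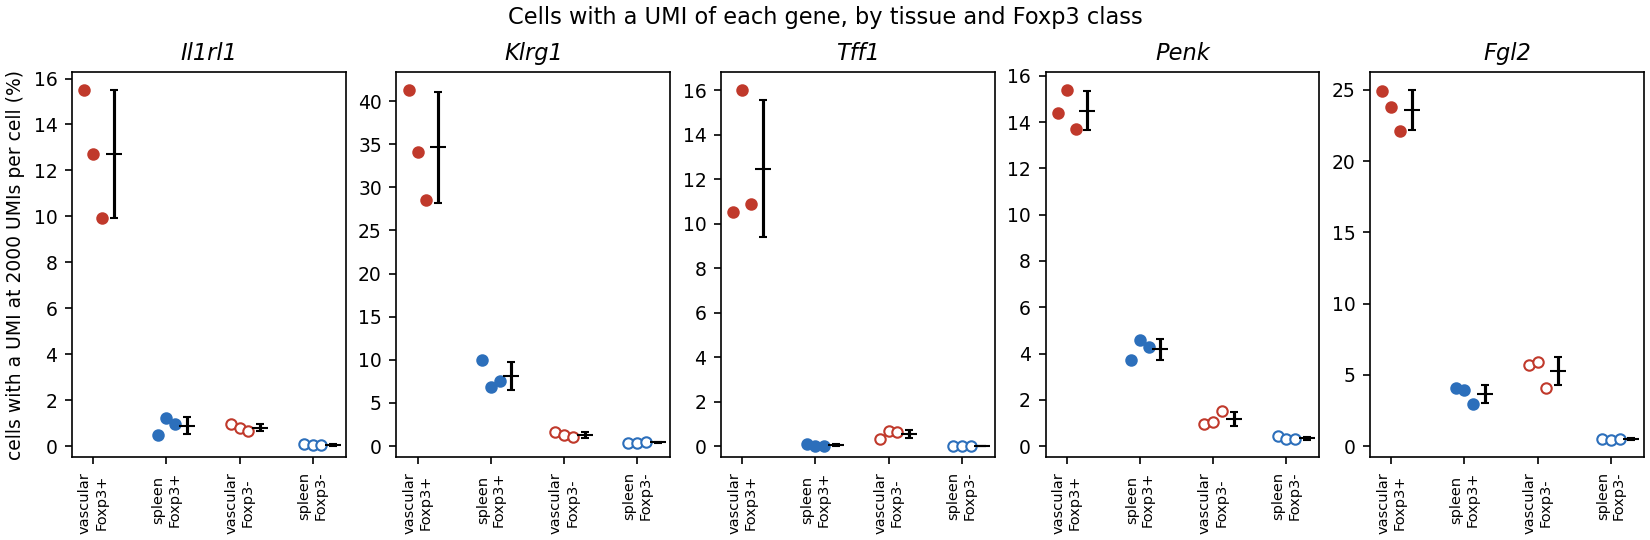
The vertical axis of each panel gives the expected percent of cells with a UMI of the gene at 2000 UMIs per cell. Points are single libraries (filled for Foxp3+, open for Foxp3- cells, red for vascular, blue for spleen) and black bars are mean ± SD of 3 libraries. Vascular Foxp3+ cells sit highest in every panel, with Klrg1 at 34.6 ± 6.42%.

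Cells other than T cells were used as a guide to the background of free RNA, and such cells were present although all libraries are labelled CD4+ T cells. No UMI of Il1rl1, Klrg1 or Tff1 was seen in 1080 vascular plasmacytoid dendritic cells (Siglech UMI, no Cd3 UMI), which allows a share of up to 0.278%, nor in 144 such spleen cells, 66 vascular B cells or 189 spleen B cells. Penk was seen in 1 of the 1080 vascular dendritic cells and in 1 of the 189 spleen B cells. Fgl2 was seen in 4.54% of the vascular and 2.08% of the spleen dendritic cells, and in 3.03% of the vascular and 1.59% of the spleen B cells. Whether these Fgl2 UMIs came from free RNA or from the cells' own transcripts was not tested. Median depth was 7320 to 8485 UMIs in the dendritic cells and 3426 to 3917 UMIs in the B cells of a library. Vascular Foxp3+ cells lay above this background for all 5 genes. In spleen Foxp3- cells the mean shares were 0.154% for Il1rl1, 0.633% for Klrg1, 0.0217% for Tff1, 0.505% for Penk and 1.09% for Fgl2. By share alone they cannot be set apart from a background that 189 spleen B cells limit only to 1.59%. Counts per positive cell differed between the genes: positive spleen Foxp3- cells held means of 2.36 to 4.6 Klrg1 and 4.33 to 9.97 Penk UMIs in a library, with up to 15 and 89 UMIs in 1 cell. Those of Il1rl1, Tff1 and Fgl2 held means of 1 to 1.42 UMIs, so these means do not set them apart from free RNA either. Single such cells held up to 3 Il1rl1, 1 Tff1 and 6 Fgl2 UMIs. Fgl2+ spleen Foxp3- cells carried the receptor gene Cxcr6 in 65% and the cytokine gene Ifng in 45.8%. Spleen Foxp3- cells with none of the 5 genes carried them in 6.53 and 7.38%. The growth factor gene Areg was detected in 1.69 and 1.7% of these cells. Whether the Fgl2 UMIs were free RNA was not tested.

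For Klrg1 and Penk the tissues differed in the share of positive cells and not, beyond the library spread, in the level within them. Foxp3+ cells with a Klrg1 UMI held 712 ± 44.7 CPM in vascular and 745 ± 34 CPM in spleen libraries. Foxp3+ cells with a Penk UMI held 1693 ± 160 CPM in vascular and 2015 ± 395 CPM in spleen libraries. Cells with an Fgl2 UMI held 299 ± 11.8 CPM and 221 ± 4.93 CPM, and cells with an Il1rl1 UMI 295 ± 25 CPM and 163 ± 23.2 CPM, in vascular and spleen libraries (SD, n = 3 each). These last values lie near the level that 1 UMI gives, since positive spleen cells held a mean of 1.57 Fgl2 and 1.09 Il1rl1 UMIs, against 2.51 and 2.25 in positive vascular cells. Penk was concentrated in few cells: the 10% of positive vascular Foxp3+ cells with the most carried 44.6 to 50.1% of its UMIs, and single cells reached 114 to 165 UMIs.

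**Figure D2:**
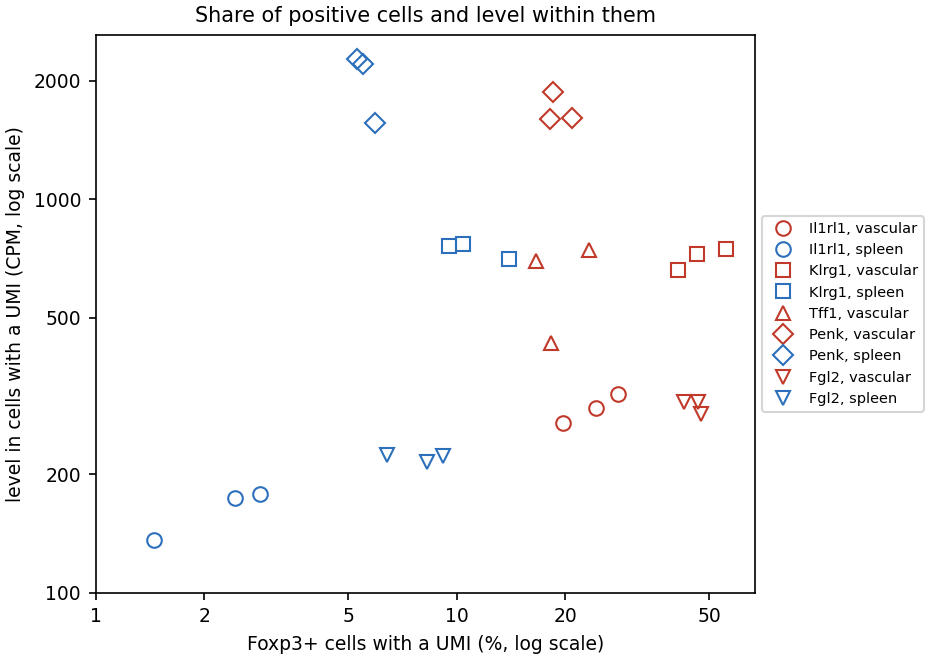
The horizontal axis gives the percent of Foxp3+ cells with a UMI of a gene and the vertical axis the CPM of that gene summed over those cells, both on log scales. Each symbol is 1 library (red vascular, blue spleen), and libraries with under 3 positive cells, which are all spleen libraries for Tff1, are not drawn. Klrg1 and Penk symbols of the tissues differ along the horizontal axis and overlap along the vertical one.

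Other signals moved with tissue in the same Foxp3+ cells. Heat shock genes summed to 2008, 1566 and 1638 CPM in vascular and 180, 187 and 205 CPM in spleen libraries, and immediate early genes to 6181 to 7773 CPM and 4865 to 5271 CPM. Markers of plasmacytoid dendritic cells, which include Bst2, a gene T cells also use, summed to 607 to 897 CPM in vascular and 277 to 353 CPM in spleen libraries. Macrophage markers summed to 75.9 to 118 and 47 to 103 CPM, and the type 2 innate lymphoid genes Il5 and Il13 to 1.71 to 5.89 and 0 CPM. Of 4 mast cell and basophil markers 3 were at 0 in every vascular library, and 3 or 4 were at 0 in each spleen library. The part of these signals in the tissue differences was not tested.

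Resting Tregs carry the lymph node homing gene Ccr7, and cells with a UMI of it were less frequent in each vascular than in each spleen library. Ccr7 was found in 18, 20.1 and 26.5% of vascular Foxp3+ cells, against 54.1, 50 and 46.6% of spleen Foxp3+ cells. Among Foxp3+ cells without it, Klrg1 was detected in 59.8, 49.9 and 46.4% of vascular cells, against 27.4, 16.6 and 18% of spleen cells. In the same cells Fgl2 was detected in 48.7, 50.4 and 49.1% of vascular and 17.9, 14.1 and 10.1% of spleen cells. The tissues stayed apart for both genes in these cells. With cells carrying Ccr7 left out, a setting chosen after the data were seen, the log2 difference was 1.26 for Klrg1, 2.34 for Fgl2 and 3.38 for Il1rl1.

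The integrin gene Itgae (CD103) went with Klrg1 in spleen and not in vascular libraries. It was detected in 41.4, 40.3 and 39.5% of Klrg1+ spleen Foxp3+ cells, against 8.99, 10.1 and 11.3% of Klrg1- spleen Foxp3+ cells. In vascular Foxp3+ cells it was detected in 25.6, 35.1 and 38.7% of Klrg1+ cells, against 25.7, 34 and 36.9% of Klrg1- cells. The difference between these patterns was not tested.

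In single vascular Foxp3+ cells the 5 genes were often found together. At least 2 of them had a UMI in 51.8, 53.1 and 42.5% of vascular Foxp3+ cells, which is 297, 232 and 244 cells, against 6.28, 5.69 and 5.25% of spleen Foxp3+ cells, which is 13, 46 and 41 cells. None was found in 19.4, 26.8 and 32.9% of vascular and in 76.8, 79.7 and 81.6% of spleen Foxp3+ cells. All 5 were found together in 9, 10 and 7 vascular cells and in 0 of 1796 spleen cells. Cells with 2 or more were deeper in vascular libraries, with median totals of 6017, 6512 and 7049 UMIs, against 4208, 4978 and 5810 UMIs in cells with none.

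**Figure D3:**
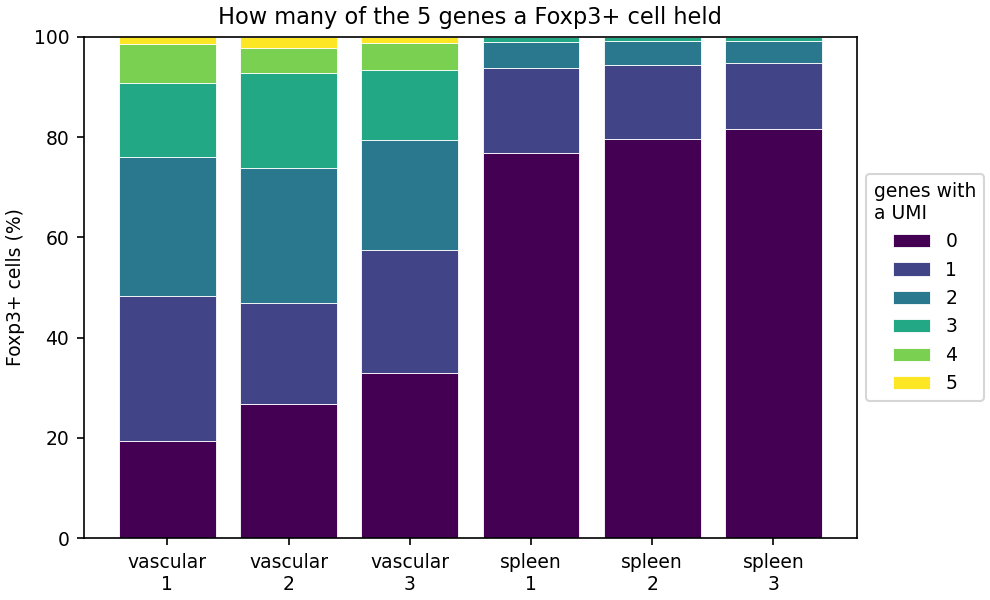
Bars give the percent of Foxp3+ cells of each library that held UMIs of 0, 1, 2, 3, 4 or 5 of the genes, with vascular libraries on the left. Cells with none take 19.4 to 32.9% of the vascular bars and 76.8 to 81.6% of the spleen bars.

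Odds ratios compare the odds of finding one gene in cells with and without another, and those below are expected at 2000 UMIs per cell, which sets all cells to one depth. Il1rl1 and Klrg1 had odds ratios of 3.83, 5.2 and 5.65 in vascular libraries, the highest of the 10 pairs at that depth. The first place depends on depth: at 1000 UMIs per cell the mean over libraries was 3.6 for Il1rl1 with Klrg1 and 4.11 for Tff1 with Penk, which was then the higher in vascular libraries 1 and 3. With cells carrying Ccr7 left out, Tff1 with Penk was also the higher in vascular library 1, at 3.65 against 3.46. Unthinned, Klrg1 was found in 84.4, 80.2 and 82.3% of Il1rl1+ vascular Foxp3+ cells, against 44.8, 35.3 and 30.8% of Il1rl1- cells. Most cells with an Il1rl1 UMI thus had a Klrg1 UMI too, whereas Il1rl1 was found in 42.2, 42.1 and 39.6% of Klrg1+ cells. In spleen libraries 2 and 3 Klrg1 was found in 60.9 and 63.2% of Il1rl1+ Foxp3+ cells, against 8.03 and 9.06% of Il1rl1- cells, on 14 and 12 cells with both.

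The secreted products paired differently. Tff1 and Penk had odds ratios of 3.59, 3.07 and 4.62 in vascular libraries, and Penk was found in 36.2, 33.3 and 42.1% of Tff1+ cells, against 14.5, 17 and 13.4% of Tff1- cells. Il1rl1 and Penk had odds ratios of 3.11, 2.23 and 3.2, Klrg1 and Fgl2 of 2.08, 2.37 and 2.49, and Klrg1 and Penk of 1.76, 2.81 and 2.18. Weaker pairs were Il1rl1 and Tff1 at 2.1, 1.39 and 2.09, Tff1 and Fgl2 at 1.24, 1.72 and 2.06, and Il1rl1 and Fgl2 at 1.39, 1.63 and 1.27. Klrg1 and Tff1 stood at 0.997, 1.57 and 1.59, and Penk and Fgl2 at 1.02, 1.32 and 1.33, so both pairs sat close to independence in vascular library 1. Fgl2, although common, had its highest odds ratios with Klrg1.

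In spleen Foxp3+ cells the same pairs rest on few cells. Klrg1 and Fgl2 shared 7, 25 and 20 cells unthinned and an expected 2.83, 10.1 and 7.95 at 2000 UMIs per cell. At that depth their odds ratios were 5.56, 7.8 and 7.54, above the 2.08, 2.37 and 2.49 of the vascular libraries. Klrg1 and Penk shared 6, 10 and 16 cells unthinned and an expected 3.2, 5.32 and 10.6 at that depth. Their odds ratios were 7.92, 2.6 and 6.78, against 1.76, 2.81 and 2.18 in vascular libraries, so the tissues overlapped. Il1rl1 and Klrg1 stood at 13.6 and 17.4 in spleen libraries 2 and 3, on an expected 4.7 and 4.38 shared cells. Tff1 could not be paired in spleen.

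**Figure D4:**
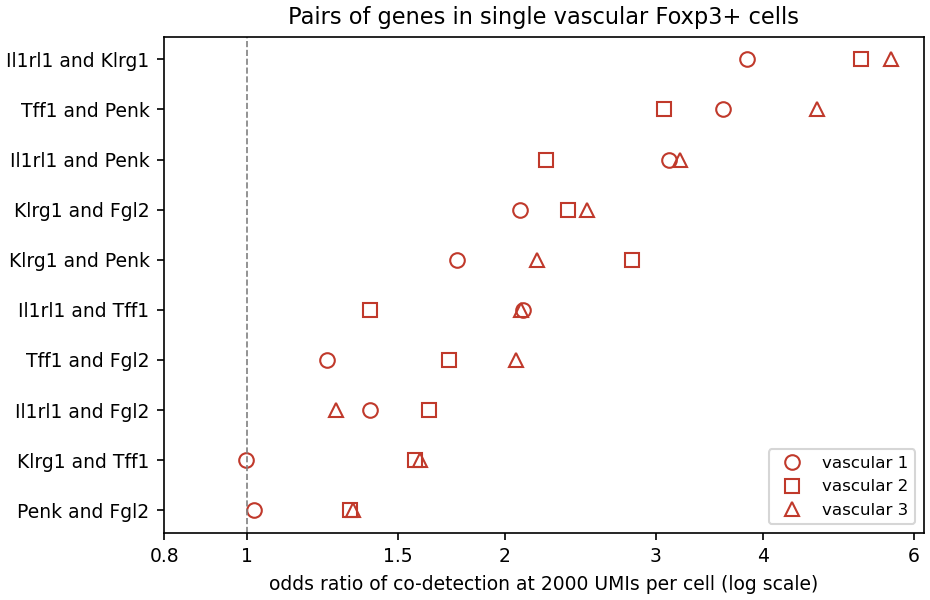
Each symbol is the odds ratio of co-detection of 2 genes among the Foxp3+ cells of 1 vascular library, expected at 2000 UMIs per cell, on a log axis. The dashed line marks independence, and Il1rl1 with Klrg1, at 3.83 to 5.65, stands at the top at this depth, although Tff1 with Penk has the higher mean at 1000 UMIs per cell.

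Other genes differed between vascular Foxp3+ cells with 2 or more of the 5 genes and those with none. Among 4848 genes with a mean of at least 20 CPM in both kinds of cell, the 10 with the largest lowest fold over the 3 libraries, in cells with 2 or more of the 5 against cells with none, were Cxcl2, Mt1, Ccr8, Hilpda, Il1r2, Rln3, Sdc4, Gpr65, Dgat2 and Areg. Cxcl2, a neutrophil-attracting chemokine, was 4.89 to 17.4 times higher, and Mt1, a metallothionein, 3.66 to 6.31 times higher. Ccr8, a chemokine receptor of tissue and tumour Tregs, was 3.21 to 4.24 times higher, with means of 441 and 120 CPM. Il1r2, the IL-1 decoy receptor, was 2.75 to 4.52 times higher, and Areg, the repair growth factor amphiregulin, 2.62 to 4.86 times higher. Pcsk1 was outside this choice because it stood at 3.25 CPM in cells with none, and its lowest fold was 7.22. Ccr7 stood at 0.181 to 0.298 times its level in cells with none. Since cells were split by genes of the same cells, these folds are a description. Spleen cells with 2 or more, which numbered only 13, 46 and 41, held 333 CPM of Areg, against 59.3 CPM in spleen cells with none.

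Foxp3- cells carried the 5 genes at lower levels, and again more in vascular than in spleen libraries. The libraries did not overlap for any of them, as for 27.9% of 11962 genes tested in Foxp3- cells in this direction. Il1rl1 stood at 5.28, 4.82 and 3.82 CPM in vascular and 0.484, 0.353 and 0.0945 CPM in spleen Foxp3- cells. Klrg1 stood at 12.7, 11.2 and 9.07 CPM in vascular and 3.71, 2.8 and 4.44 CPM in spleen Foxp3- cells. Both receptors were thus low when summed over this class, where few cells held them. Foxp3- cells with a Klrg1 UMI held 453 ± 29.1 CPM in vascular and 618 ± 252 CPM in spleen libraries. Those with an Il1rl1 UMI held 250 ± 8 and 184 ± 50.6 CPM (SD, n = 3 each).

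The secreted products followed the same direction. Tff1 stood at 6.26, 9.22 and 12 CPM in vascular and 0.0806, 0 and 0.0236 CPM in spleen Foxp3- cells, on 723 and 2 UMIs, a ratio of 433 with a 95% counting interval of 119 to 3581. Penk stood at 61.2, 43 and 43.9 CPM in vascular and 4.19, 8.03 and 4.56 CPM in spleen Foxp3- cells. In vascular library 1, 1 cell carried 921 of the 1936 Penk UMIs, and without it the level before scaling was 32.3 CPM instead of 61.6 CPM. Fgl2 stood at 33.4, 33.4 and 24.1 CPM in vascular and 2.74, 2.09 and 2.79 CPM in spleen Foxp3- cells.

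Log2 differences in Foxp3- cells were 4.13 (SE 0.38) for Il1rl1, 1.59 (SE 0.2) for Klrg1, 3.1 (SE 0.25) for Penk and 3.6 (SE 0.18) for Fgl2. These values changed when cells were left out. With cells carrying Ccr7 left out they were 2.93 for Il1rl1, 0.14 for Klrg1, 2.33 for Penk and 2.52 for Fgl2, so the Klrg1 difference between the tissues was then near 0. With cells carrying a macrophage, B cell or plasmacytoid dendritic cell marker left out, the Penk value was 1.99. That restriction left 2265, 1385 and 1922 vascular and 772, 3064 and 2978 spleen Foxp3- cells. In a joint fit of both classes, the tissue difference in Foxp3+ minus that in Foxp3- cells was -1.45 (SE 0.26) for Penk, -0.69 (SE 0.19) for Fgl2, -0.24 (SE 0.41) for Il1rl1 and 0.33 (SE 0.13) for Klrg1.

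Ordered by level, each gene was highest in vascular Foxp3+ cells. Il1rl1, Klrg1, Penk and Fgl2 were lowest in spleen Foxp3- cells, whereas the spleen classes of Tff1 rested on 2 UMIs each and overlapped. The genes differed in the order between. For Klrg1 and Penk, spleen Foxp3+ libraries all lay above vascular Foxp3- libraries. For Tff1 and Fgl2 the reverse held, with every vascular Foxp3- library above every spleen Foxp3+ library. For Il1rl1 these neighbours overlapped and did not differ beyond their spread.

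Within a library, Foxp3+ cells exceeded Foxp3- cells by 30.5 to 34.2 times for Klrg1 in vascular and 21.3 to 29.3 times in spleen libraries. Il1rl1 was 13.7 to 17.1 times higher in vascular Foxp3+ than Foxp3- cells, and Tff1 9.51 to 22.8 times. Penk was 6.01 to 8.79 times higher in vascular and 11.5 to 28.5 times in spleen libraries, and Fgl2 4.32 to 5.58 times and 6.26 to 10.6 times. Single cells weigh on the Penk ratios. Without the Foxp3- cell richest in Penk in each library they were 8.67 to 11.5 in vascular and 15.9 to 44.5 in spleen libraries. That of vascular library 1 was 11.5 instead of 6.01. Leaving out that cell alone raises the ratio. Without the richest cell of each class the ratios were 7.97 to 10.6 in vascular and 13.9 to 38.1 in spleen libraries. That of spleen library 1 was then 22.1 instead of 28.5, where 1 Foxp3+ cell held 73 of 202 Foxp3+ Penk UMIs. Because Foxp3- cells are far more numerous, only 27.6 to 37.1% of Fgl2+ vascular cells had a Foxp3 UMI, whereas 65 to 74.8% of Klrg1+ vascular cells did. Cells with a single UMI are counted here, and Fgl2 was found in 10% of vascular Foxp3- cells, against 4.54% of vascular dendritic and 3.03% of vascular B cells.

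Foxp3- cells with one of the genes are described here over the cells of the 3 vascular libraries together, with no test. Ikzf2, which encodes the Treg-associated factor Helios, was detected in 38.7% of Il1rl1+, 43.5% of Klrg1+, 51.8% of Tff1+ and 48.5% of Penk+ vascular Foxp3- cells, against 17.1% of Fgl2+ cells and 9.19% of cells with none of the 5. Tregs whose Foxp3 RNA was not captured cannot be told apart from other Foxp3- cells here. Fgl2+ vascular Foxp3- cells carried the residency receptor gene Cxcr6 in 78.2% and Ifng in 47.3%, against 47.1 and 29.6% of cells with none. The chemokine gene Ccl1 was detected in 14.2% of Tff1+, 13% of Penk+, 6.72% of Il1rl1+, 2.7% of Fgl2+ and 2.11% of Klrg1+ cells, against 0.792% of cells with none. The cytokine gene Csf2 was detected in 16.3% of Tff1+, 13.7% of Penk+, 8.3% of Il1rl1+, 3.92% of Fgl2+ and 2.72% of Klrg1+ cells, against 0.873% of cells with none. Il1rl1+ cells carried Gata3 in 65.6% and Il13 in 5.93%, against 25.4 and 0.126% of cells with none, and cells with any of the other genes carried Gata3 in 35.4 to 54.1% and Il13 in 0.906 to 2.67%. Tff1+ cells were deep, with a median of 7674 UMIs against 4443 in cells with none.

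Each gene's nearest companions were sought by Pearson's r of log2 CPM over 12 sums (6 libraries, Foxp3+ and Foxp3- cells) among 5025 genes. The sums share libraries and the same large tissue and class contrasts, so the values carry no test. Il1rl1 was closest to Stx11 (0.983), Vim (0.979) and Areg (0.978), and Klrg1 to Tank (0.992), Wls (0.991) and Ncmap (0.990). Tff1 was closest to Pdcd1 (0.974), Tmem30a (0.970) and Tyrobp (0.966). Every spleen sum of Tff1 held 0 or 1 UMI, so its r values, also those with the other members, depend on values at the floor. Penk was closest to Tnfrsf4 (0.993), Entpd1 (0.989) and Far1 (0.983), and Fgl2 to Pqlc3 (0.990), Areg (0.990) and Eif4e3 (0.988). Among the 5 genes themselves r ran between 0.600 for Klrg1 with Tff1 and 0.971 for Il1rl1 with Fgl2.

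Genes around the 5, in 7 lists that leave the 5 out, were then tested between tissues in Foxp3+ cells. These lists too were chosen with earlier results of these data known. Their counts and p-values therefore describe these libraries and are not independent evidence of a shared programme. Of 80 listed genes 66 could be tested, and with edgeR's quasi-likelihood test and Benjamini-Hochberg adjustment over 10118 genes 37 were higher and 13 lower in vascular libraries, while 16 did not pass. Over all genes tested 25.3% passed, 15.1% higher and 10.2% lower, with a median log2 difference of 0. Leaving out cells with Ccr7, 43 of these 50 calls held in the same direction, 6 did not pass (Batf, Maf, Sigirr, Nt5e, Il9r and Satb1) and Ccr7 itself could no longer be tested. Leaving out cells with macrophage, B cell or plasmacytoid dendritic cell markers, 38 held, 3 did not pass and 9 could not be tested, among them Pparg, Il1r1, Bach2, Klrc1, Klrd1 and Cpe. A single UMI of any such marker, Bst2 among them, removed a cell. Only 143, 111 and 126 vascular and 54, 296 and 258 spleen Foxp3+ cells were left. The part of the smaller cell number in the lost calls was not tested.

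Regulators of tissue Tregs rose together: 10 of 10 were higher in vascular Foxp3+ cells, with a median log2 difference of 1.36. This was not limited to Foxp3+ cells, since 9 of 10 were also higher in vascular Foxp3- cells, with a median of 1.12. Pparg, the nuclear receptor known from fat Tregs, stood at 8.15 ± 0.855 CPM in vascular and 0.366 ± 0.344 CPM in spleen libraries (log2 4.07, SE 0.42, edgeR adjusted p = 0.00011). Rora, a nuclear receptor of skin Tregs, stood at 362 ± 77.5 and 58.3 ± 4.14 CPM (log2 2.65, SE 0.15, edgeR adjusted p = 3.7e-06). Id2, an inhibitor of E proteins, stood at 499 ± 142 and 119 ± 20.1 CPM (log2 2.08, SE 0.2, edgeR adjusted p = 8.3e-05). Gata3 rose least, by 0.64. Batf, which rose by 0.67, gave an edgeR adjusted p of 0.15 once cells with Ccr7 were left out. Maf gave 0.16 there, and its call was also lost without spleen replicate 2. Pparg stood at a log2 difference of 5.29 in cells without Ccr7. Its spleen level of 0.366 ± 0.344 CPM rests on few UMIs, so the size of its log2 differences is uncertain.

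Of 18 effector and surface genes 15 were higher and 3 did not pass, with a median log2 difference of 1.16. Areg stood at 973 ± 162 CPM in vascular and 93.3 ± 11.4 CPM in spleen libraries (log2 3.39, SE 0.14, edgeR adjusted p = 4.8e-07). Pdcd1, the inhibitory receptor PD-1, differed by 2.57 (adjusted p = 7.1e-07) and Ccr8 by 2.38 (adjusted p = 9.8e-05) by edgeR on the log2 scale. Il10, an anti-inflammatory cytokine, stood at 23.5 ± 7.39 and 21 ± 7.14 CPM and did not pass (edgeR adjusted p = 0.53), nor did Gzmb (0.11) or Lag3 (0.15). The calls of Nt5e (log2 0.43, edgeR adjusted p = 0.032) and Il9r (log2 0.90, edgeR adjusted p = 0.024) were the least stable: both were lost by DESeq2. Nt5e was also lost with any library but spleen replicate 2 left out, and Il9r without spleen replicate 2 or 3 or vascular replicate 2 or 3.

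Of 10 genes that signal below or beside the IL-33 receptor 1 was higher, 1 was lower and 8 did not pass, with a median log2 difference of -0.15, a share near that over all genes. The kinase genes Irak2, at a log2 difference of 0.77 (edgeR adjusted p = 0.053), and Irak1, at -0.54 (edgeR adjusted p = 0.072), missed the threshold narrowly. Nfkb1 was higher by 0.67 (edgeR adjusted p = 0.014) and Myd88, the adaptor, lower, by -0.68 (edgeR adjusted p = 0.001). Il1rap, the co-receptor of ST2, stood at 4.81 ± 0.341 CPM in vascular and 4.24 ± 0.962 CPM in spleen libraries (log2 0.26, SE 0.27, edgeR adjusted p = 0.51). The Nfkb1 call was lost without spleen replicate 2, spleen replicate 3 or vascular replicate 1, each left out in turn.

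Relatives of Il1rl1 in the IL-1 receptor family came next: of 5 tested 4 were higher and 1 lower. Il1r1, the signalling IL-1 receptor, stood at 6.99 ± 1.12 CPM in vascular and 0.564 ± 0.136 CPM in spleen libraries (log2 3.59, SE 0.39, edgeR adjusted p = 0.00014). This spleen level too rests on few UMIs. Il1r2, the decoy receptor, stood at 192 ± 20.5 and 30.9 ± 7.92 CPM (log2 2.58, SE 0.16, edgeR adjusted p = 4.5e-06). Sigirr, an inhibitory member, was lower by -0.34 (edgeR adjusted p = 0.033), a call lost without spleen replicate 2 or 3, without vascular replicate 1 or 3, without cells carrying Ccr7, by DESeq2, and with the replicate number as a block.

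Genes of Treg identity were divided: of 9 tested 3 were higher, 2 lower and 4 did not pass. Tnfrsf18 (GITR), Ctla4 and Il2ra, receptors high on activated Tregs, were higher by 0.95, 0.72 and 0.72. Izumo1r, which encodes folate receptor 4, stood at 291 ± 43.4 CPM in vascular and 762 ± 142 CPM in spleen libraries (log2 -1.39, SE 0.15, edgeR adjusted p = 0.00013). Lrrc32, which encodes GARP, the docking receptor of latent TGF-beta, differed by -1.10 (SE 0.18, edgeR adjusted p = 0.0014). All 9 resting and lymphoid homing genes reported were lower in vascular Foxp3+ cells, with a median of -1.21, although Satb1 stood at 0.31 (edgeR adjusted p = 0.15) once cells carrying Ccr7 were left out. The largest differences were those of Bcl2 at -1.98, Tcf7 at -1.66 and Bach2 at -1.53 on the log2 scale.

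Partners of the 5 genes were mostly too low to test, 13 of 18 genes, among them Il33, the opioid receptor genes Oprd1 and Oprm1, and the relatives Klrg2, Tff2, Tff3 and Fgl1. Of 5 tested 4 were higher. Klrc1 and Klrd1, which encode the paired NKG2A and CD94 receptors, differed by 3.21 (edgeR adjusted p = 0.00063) and 2.06 (edgeR adjusted p = 0.00026). Cpe, the carboxypeptidase that trims neuropeptides such as enkephalins, stood at 11.6 ± 2.55 CPM in vascular and 1.85 ± 0.847 CPM in spleen libraries (log2 2.62, SE 0.35, edgeR adjusted p = 0.00046). Pomc, the precursor of another opioid peptide, did not pass, at 4.48 ± 0.621 and 2.87 ± 1.58 CPM (edgeR adjusted p = 0.36).

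Pcsk1, the convertase that cuts proenkephalin, was found in vascular Foxp3+ cells and not in spleen Foxp3+ cells. It had 166, 119 and 165 UMIs in vascular and 0 in each spleen library, a level at least 136-fold higher when 3 counts over the spleen libraries are taken as the floor. It was detected in 17.3, 14 and 11.8% of vascular Foxp3+ cells, and in 36.8, 27.5 and 33.7% of Penk+ cells, against 12.8, 10.4 and 7.02% of Penk- cells. By Klrg1 it was split more widely, being detected in 25.6, 28.2 and 23.4% of Klrg1+ cells, against 6.72, 1.7 and 3.83% of Klrg1- cells. These shares are unthinned. In Tff1+ cells it was detected in 36.2, 29.4 and 37.9%, against 13, 9.25 and 6.68% of Tff1- cells. In the 102 Penk+ spleen Foxp3+ cells no Pcsk1 UMI was seen.

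**Figure D5:**
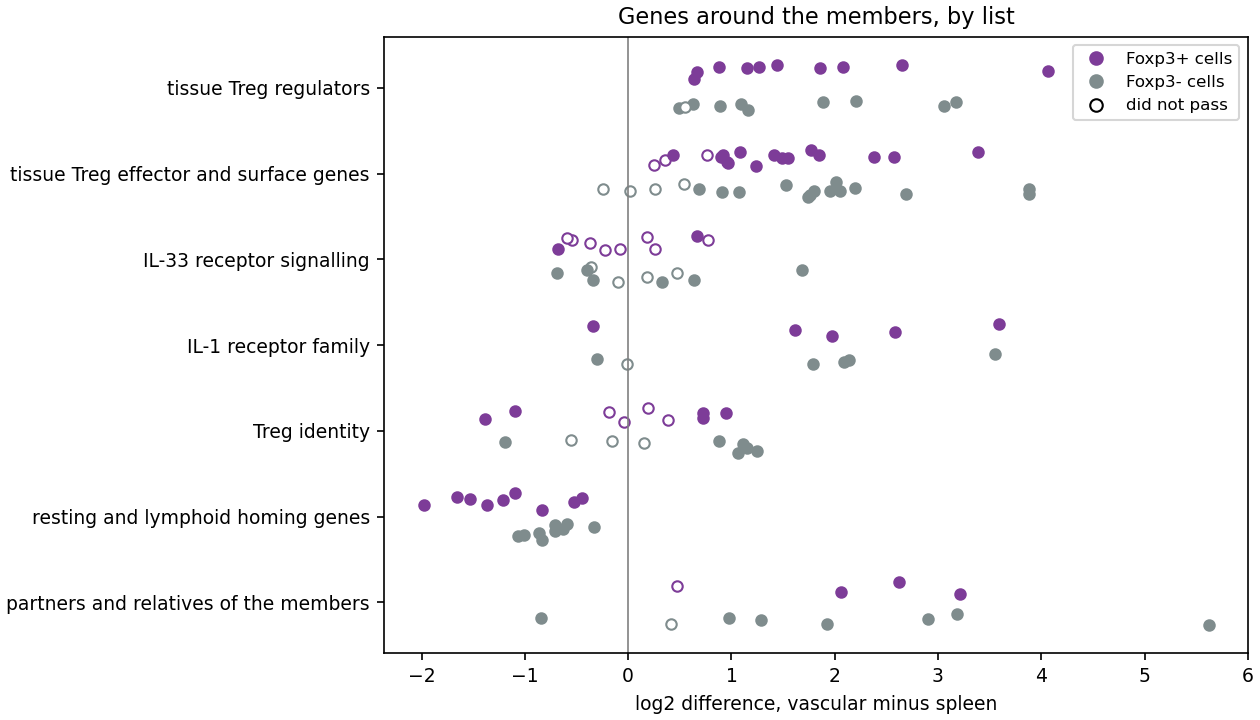
Each point is a gene of 1 of the 7 lists, and the horizontal axis is its log2 difference, vascular minus spleen, in Foxp3+ cells (purple) or Foxp3- cells (grey), filled where the adjusted p was under 0.05. Pcsk1 in Foxp3+ cells is not drawn because spleen held no UMI of it. The 10 tissue Treg regulators all lie right of 0 in Foxp3+ cells and the 9 resting genes all left.

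In Foxp3- cells the same lists gave 41 higher and 15 lower genes of 70 tested, where 39.3% of 11962 genes passed, 22% higher and 17.3% lower. Of the effector and surface genes 14 of 18 were higher there, with a median log2 difference of 1.75, against 1.16 in Foxp3+ cells. All 9 resting genes were lower there too, with a median of -0.71. The tissue difference itself differed between Foxp3+ and Foxp3- cells for 32 of 70 listed genes, 7 above 0 and 25 below 0 (Foxp3+ minus Foxp3-), where 8.06% of 11293 genes passed this test, 2.98% above and 5.08% below 0. Pparg was the regulator with the largest such value, at 3.58 (SE 0.61, edgeR adjusted p = 0.0027), a size that few spleen Foxp3+ UMIs leave uncertain. It stood at 0.706 ± 0.143 CPM in vascular and 0.459 ± 0.0494 CPM in spleen Foxp3- cells, which did not pass (edgeR adjusted p = 0.16). Ccr8 went the other way, at -1.6 (SE 0.21, edgeR adjusted p = 0.00054).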

How the data were processed

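The deposited values are raw UMI counts for each gene and barcode, whole numbers with no normalization, per the file headers and values. Per the submitters' processing notes the tools were FastQC 0.11.8, Cell Ranger 2.2.0 with STAR 2.5.1b, and Seurat, and the build was mm10. The members and gene lists were chosen with earlier results of these data known.

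A barcode was used if it had 300 genes or more and no more than 10% of its UMIs from mitochondria. Doublets were scored in each library against 2 simulated doublets per cell (2000 variable genes, 30 components, 30 neighbours), and the highest-scoring 0.8% of cells per 1000 barcodes were removed. Of 2312 to 9581 barcodes per library, with medians of 4423 to 5724 UMIs, 2266 to 8846 cells were used. UMIs were summed per library over Foxp3+ or Foxp3- cells and fitted with edgeR 4.0.16 (quasi-likelihood test, TMM scaling, filterByExpr, two-sided, threshold 0.05, tissue as the only term). The comparison of the tissue difference between the classes had library as a block. All 5 members passed the filter in both classes, Tff1 through the vascular libraries alone. CPM values were computed from these sums with TMM-scaled totals, SE was taken from the log2 difference and the F statistic, and log2 differences are vascular minus spleen. Shares at 2000 UMIs per cell are exact hypergeometric expectations, and odds ratios have 0.5 added to each cell count. Confidence intervals are exact 95% ones. The limit that a count of 0 allows is 3 counts, and both cover counting error only. Unthinned odds ratios with under 5 cells of either gene were left out, and the limit for those at a set depth was lower.

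Named genes are the members, the 2 to 4 largest differences of each list with any member that went against its list or whose role was needed, the 3 closest companions of each member by r at a mean of at least 20 CPM, and the 10 genes with the largest lowest fold at that level. The genes with lower levels in cells holding several members were named after their values were seen. Same-numbered libraries of the tissues had correlations of their deviations of -0.185 to 0.054 in Foxp3+ and 0.123 to 0.168 in Foxp3- cells. Libraries with unlike numbers reached 0.205 in Foxp3+ cells. Both classes come from the same libraries, so whether the numbers pair the libraries is not known. Alternatives were DESeq2 1.42.0, other size factors, no count filter, doublets kept, other cell definitions, other depths, a replicate block and each library left out. Leaving out cells with C1q UMIs or with Ccr7 UMIs was chosen after seeing the data. One gene of the list of resting genes is not reported here and is in none of its counts. On simulated counts edgeR was tested before use.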

Additional observations from a re-analysis of the deposited data

Results flagged for a closer look

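The test of the difference between the 2 tissue differences singled out 32 listed genes, given here as the log2 difference in Foxp3+ cells minus that in Foxp3- cells, all with an edgeR adjusted p under 0.05. Above 0 were Pparg at 3.58, Il1r1 at 1.82, Klrd1 at 1.11, Id2 at 1, Tnfrsf9 at 0.77 and Pdcd1 at 0.55. Few spleen Foxp3+ UMIs underlie the values of Pparg and Il1r1. Pcsk1 had 10.16, a fitted value that depends on the prior count, because no spleen Foxp3+ cell held a UMI of it. Among regulators the value was below 0 for Bhlhe40 at -1.33, Prdm1 at -0.9, Nfil3 at -0.77 and Rora at -0.44. Among effector and surface genes it was below 0 for Ccr8 at -1.6, Tnfrsf4 at -1.14, Entpd1 at -0.98, Gzmb at -0.93, Ebi3 at -0.82, Ccr2 at -0.8, Tigit at -0.78, Icos at -0.62, Areg at -0.51 and Nt5e at -0.49. Irak2 stood at -0.95. Among identity genes it was below 0 for Nrp1 at -1.3, Il2rb at -0.92, Il2ra at -0.57, Lrrc32 at -0.56 and Ctla4 at -0.42. Among resting genes it was below 0 for Bcl2 at -1.17, Bach2 at -0.73, Tcf7 at -0.67, Klf2 at -0.64 and S1pr1 at -0.45. The make-up of Foxp3- cells also differed between tissues, and its part in these values was not tested.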

How the results depend on the processing

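The count of genes that passed in Foxp3+ cells, 2557, ran between 1587 and 3137 with each library left out, the lowest without spleen replicate 2, and was 1852 by DESeq2. It was 1331 without cells carrying a macrophage, B cell or plasmacytoid dendritic cell marker and 1684 without cells carrying Ccr7. Both restrictions left fewer cells, the first the fewest in each library, and the part of cell number in these counts was not tested. In Foxp3- cells 4698 genes passed, 3058 (without spleen replicate 2) to 5630 with each library left out and 4322 by DESeq2. For the difference between the classes 910 genes passed, 440 to 1036 with each library left out (440 without spleen replicate 2, 512 without spleen replicate 3 and 599 without vascular replicate 2), and 439 and 626 under the same restrictions of cells. With the replicate number as a block 2256 genes passed in Foxp3+ and 4577 in Foxp3- cells, and of the listed genes Sigirr was lost in Foxp3+ and Satb1 in Foxp3- cells. Neither the labels nor the data settle whether the numbers pair the libraries. No paired test was made for members, which have none. Of 100 log2 differences of the members other than Tff1 under alternatives, 89 moved by less than the spread between libraries and 11 by more, with none changing sign. The 89 include Foxp3- values under the setting of at least 2 Foxp3 UMIs, which leaves Foxp3- cells as they were. Of 120 shares at equal depth 34 moved by more. Depth limits Il1rl1 and Tff1 in spleen, where counts were near 0.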

Other observations

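Klf3, Evl, Id3, Tcf7, S1pr1, Bcl2, Trib2, Lef1 and Rasgrp2, named after their values were seen, stood lower in each vascular library in Foxp3+ cells with 2 or more of the 5 genes than in those with none, Tcf7 at 21.7 and 66.6 CPM and S1pr1, the exit receptor, at 40.2 and 113 CPM. Izumo1r stood at 240 and 414 CPM, and Lrrc32 at 32.1 and 50.2 CPM. Foxp3 itself stood at 443 and 368 CPM, between 0.936 and 1.48 times. In spleen the cytotoxic gene Gzmb stood at 1014 CPM in Foxp3+ cells with 2 or more and 115 CPM in those with none, whereas in vascular libraries it stood at 333 and 265 CPM. Il10 stood at 65.4 and 14 CPM in those spleen cells, against 18.6 and 24 CPM in the vascular ones. The spleen values rest on only 13, 46 and 41 cells with 2 or more, the vascular ones on 297, 232 and 244. None of these values was tested.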
